A study of Mus musculus with 4 samples.

Results

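Transcripts of the tubulins and of the proteins that fold, nucleate, bind, track or sever microtubules were followed in RNA recovered with an antibody against Cpeb4. Members were chosen by gene symbol, with no measured value in the rule, and pseudogenes were left out. Earlier results of these data were known when the set was chosen. The choice gave 50 of the 53379 genes in the deposited table: 7 alpha tubulins, 8 beta tubulins, 7 gamma tubulins and ring complex proteins, 5 folding cofactors, 7 lattice-binding proteins, 2 LC3 light chains, 4 Map7 family genes, 5 plus-end tracking genes, 4 stathmins and the severing enzyme Spast. The tissue was the ventricular-subventricular zone (V-SVZ), a neurogenic niche beside the lateral ventricles, and came from CD1 mice, wild type, aged 7 or 8 postnatal days. Lysates were precipitated with anti-Cpeb4 or with anti-IgG as the control, and the recovered RNA was sequenced. The experiment was done 2 times with 1 library per antibody, so n = 2 for each antibody, and all 4 libraries carried the same labels for tissue, genotype, strain and age range. The number of animals behind a library was not given in the sources used here, so the p-values speak only to variation among these 4 samples, which could be technical.

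Microtubules are hollow polymers of alpha and beta tubulin dimers. Dedicated cofactors fold the subunits, the gamma-tubulin ring complex starts new filaments, lattice-binding proteins such as Map2 and tau stabilise them, end-binding proteins ride the growing plus ends, stathmins sequester free dimers and spastin cuts filaments. In the V-SVZ, this machinery serves dividing progenitors, the motile cilia of ependymal cells and the leading processes of migrating neuroblasts. Cpeb4 is an RNA-binding protein of the cytoplasmic polyadenylation element-binding family, which binds the untranslated ends of mRNAs and controls their poly(A) tails and translation. The comparison with IgG asked which transcripts the Cpeb4 antibody recovered above what the control antibody did.

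Values were in FPKM, fragments per kilobase of gene normalised for depth, and the libraries held 22486721 to 35037171 reads on genes. A precipitate reflects the abundance of a transcript in the tissue as well as its recovery, and fewer cells of a type, less RNA per cell and less recovery cannot be told apart. The markers of V-SVZ cell types were measured in every library. The 6 neuroblast markers summed to 459 and 503 FPKM in the Cpeb4 libraries and to 263 and 265 in the IgG libraries, with 5 of 6 called higher. The 6 neuron markers summed to 284 and 316 against 236 and 234 FPKM, with 3 called higher and 1 lower. The 6 oligodendrocyte markers summed to 433 and 407 against 297 and 271 FPKM, with 3 called higher, and the 6 ependymal markers to 89.0 and 76.2 against 108 and 104 FPKM, with 4 called lower. Astrocyte and stem cell markers summed to 1014 and 1098 against 607 and 580 FPKM (4 of 6 higher, 1 lower), microglia markers to 136 and 136 against 120 and 112 (1 higher, 2 lower), and endothelial markers to 36.3 and 29.4 against 39.8 and 37.0 (1 of 5 tested lower). Among all tested genes 38.8% were higher and 11.6% lower with the deposited scaling, and 17.5% and 42.4% with read totals. Marker calls also moved with scaling. With read totals they were 3 higher and 1 lower for neuroblasts, 1 and 3 for neurons, 0 and 1 for oligodendrocytes, 0 and 6 for ependymal cells, 3 and 2 for astrocytes and stem cells, 1 and 5 for microglia and 0 and 4 for endothelium. None of these markers was at 0 FPKM in any library. Their part in the results for the microtubule genes was not tested.

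Transcripts of the dendritic stabiliser Map2, the severing enzyme Spast and the end-binding proteins Mapre2 and Mapre1 were 2.07-fold to 3.04-fold higher in the Cpeb4 precipitates than in IgG on the FPKM + 1 scale. The tubulins themselves were not called in either direction. Of the 50 members, 45 passed the filter of at least 1 FPKM in at least 2 libraries. By limma, with Benjamini-Hochberg adjustment over all 15745 tested genes and a call at an adjusted p under 0.05, 14 of the 45 were higher, 2 were lower and 29 were not called. Among all tested genes 38.8% were called higher and 11.6% lower, so the members' shares, 31.1% and 4.44%, were not above the background, and 50.4% of all tested genes were called in either direction. Their median log2 fold change was 0.14, beside 0.19 for all tested genes. The Cpeb4 and IgG values did not overlap for 29 of the 45 members, which is the case for 75.9% of all tested genes.

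The counts rested on the scaling of the libraries and on single libraries. With FPKM rescaled by the trimmed mean of M-values, 8 members were higher and 10 lower, beside 4081 and 4050 of the 15745 tested genes. With read totals 6 were higher and 25 lower, beside 17.5% and 42.4% of all tested genes. The median of all tested genes moved from 0.19 to -0.04 and -0.24 under these scalings, and the members' median from 0.14 to -0.13 and -0.36. Under all 3 scalings 6 members were higher (Map2, Spast, Mapre2, Mapre1, Clasp2 and Stmn2) and 2 were lower (Tbcd and Map1a), beside 17.5% and 11.6% of all tested genes. The other scalings move log2 fold changes down, so lower calls were kept almost by construction. All 1822 lower calls of the deposited scaling were kept. For higher calls read totals set the count, with 2759 genes higher there and 2758 under all 3. Without IgG replicate 1 the counts were 8 higher and 0 lower, and without IgG replicate 2 they were 7 and 0. Without Cpeb4 replicate 1 they were 15 and 6, and without Cpeb4 replicate 2 they were 22 and 2. All 6 members that were higher under every scaling were also called higher without each of the 4 libraries. The shares of all tested genes called in the fits without a library are not given here, so those counts have no background. In a fit without an IgG library the lone IgG library was taken to vary like the Cpeb4 libraries, which alone gave the spread. The members whose calls were lost there had SEs of 0.18 to 0.20, and their log2 fold changes are given beside each loss.

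**Figure D1:**
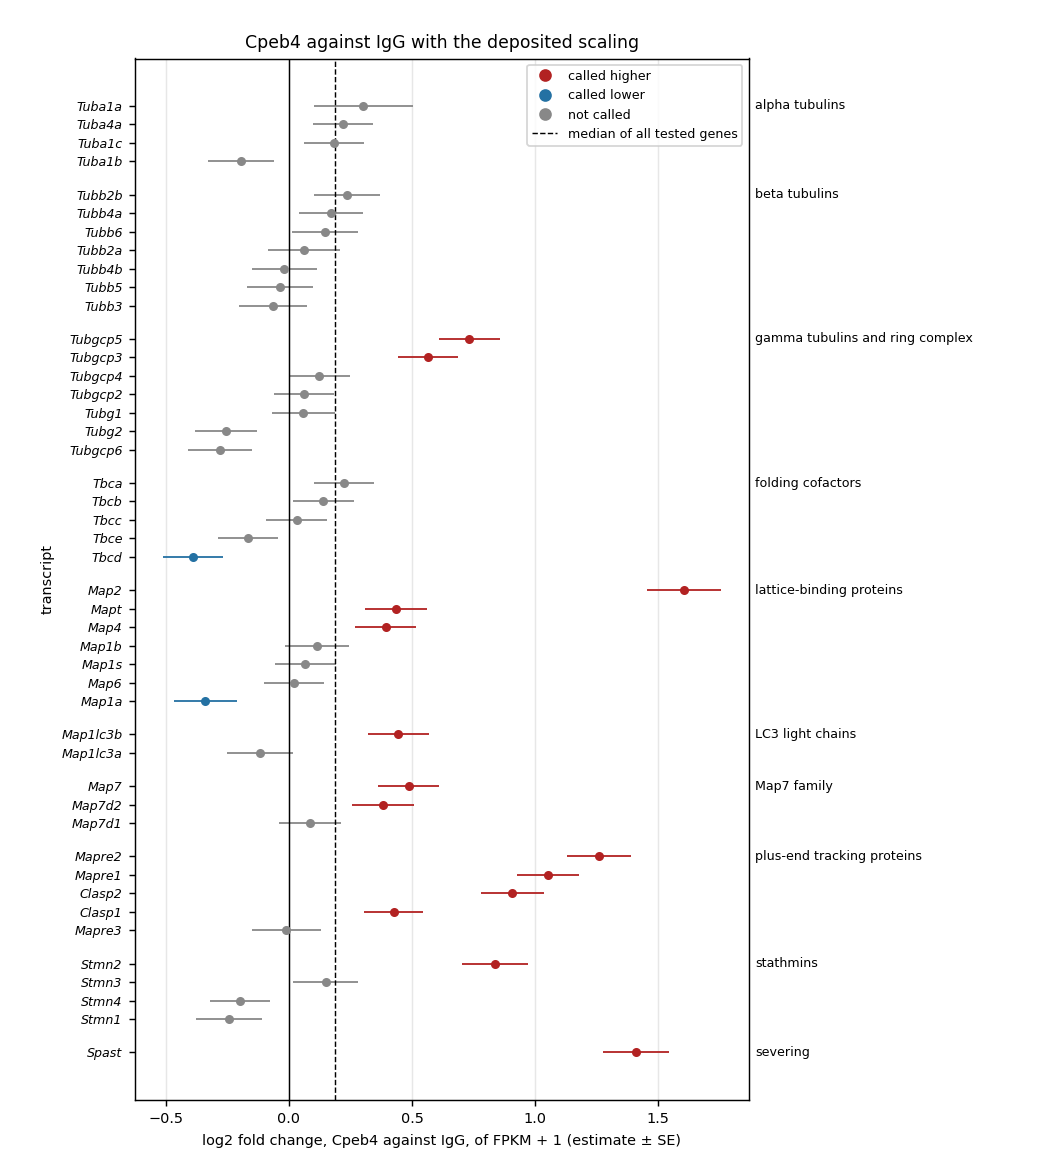
Log2 fold change of FPKM + 1, Cpeb4 against IgG, for the 45 tested members, grouped by role. Points are limma estimates, bars are ± 1 SE, colour gives the call and the dashed line is the median of all tested genes (0.19). The 11 alpha and beta tubulins lie between -0.19 and 0.30, while Map2, Spast, Mapre2 and Mapre1 lie above 1. With read totals 23 of the 32 positive values turn negative, the called Map1lc3b, Mapt, Clasp1, Map4 and Map7d2 among them.

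Alpha tubulin transcripts were the most abundant of the set, and 1 gene supplied nearly all of them. Tuba1a, the main alpha tubulin of developing neurons (chromosome 15: 98949847 to 98953501, GRCm38), had 2020 FPKM with Cpeb4 against 1615 with IgG in experiment 1, and 1855 against 1526 FPKM in experiment 2. All pairs of library values below give experiment 1 before experiment 2. Both Cpeb4 values lay above both IgG values. The difference was a log2 fold change of 0.30 (limma SE 0.20, adjusted p = 0.23), which was not called. It was 0.02 with the trimmed mean of M-values and -0.21 with read totals. Tuba1a made up 92.5% and 92.3% of the summed alpha tubulin FPKM in Cpeb4 and 90.1% and 90.3% in IgG.

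The other expressed alpha tubulins stood far below it. Tuba1b, which is widespread in dividing cells, was at 121 and 118 FPKM in Cpeb4 and at 143 and 131 FPKM in IgG. Its Cpeb4 values lay below its IgG values, with a log2 fold change of -0.19 (limma SE 0.13, adjusted p = 0.242). Tuba1a exceeded Tuba1b in log2 fold change by 0.56 in experiment 1 and by 0.43 in experiment 2. Tuba1c and Tuba4a had log2 fold changes of 0.18 and 0.22. Tuba1a, Tuba1b and Tuba1c lie in one cluster on chromosome 15 and their coding sequences are close, so counting could move reads between them, and their values are uncertain to that extent.

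Beta tubulins were spread more evenly over isotypes and had log2 fold changes between -0.07 and 0.24. Tubb2a, an isotype abundant in brain and the most abundant here (chromosome 13: 34074278 to 34078008, GRCm38), was at 323 and 292 FPKM in Cpeb4 and 302 and 287 FPKM in IgG. The groups overlapped and the log2 fold change was 0.06 (limma SE 0.15, adjusted p = 0.756). Its share of the summed beta tubulin FPKM was 34.5% and 35.1% in Cpeb4 and 35.0% and 33.6% in IgG. Tubb3, the neuronal isotype used as a marker of newborn neurons, was at 149 and 124 FPKM in Cpeb4 and 141 and 143 FPKM in IgG. Its Cpeb4 libraries fell on either side of the IgG libraries, and its log2 fold change was -0.07 (limma SE 0.14, adjusted p = 0.721).

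The remaining isotypes were not called either. Tubb2b, Tubb4a and Tubb6 had log2 fold changes of 0.24, 0.17 and 0.15. Tubb5, an isotype of proliferating cells, was at -0.04 and Tubb4b, which is used in motile cilia, at -0.02. Tubb2a and Tubb2b are neighbours of near-identical coding sequence, and reads could be split between them. In the limma fit 0 of the 11 tested alpha and beta tubulins were called, beside 38.8% higher and 11.6% lower among all tested genes. Of the 11, 0 had an unadjusted p under 0.05 in limma. At an adjusted p under 0.05, 0 were called by limma-voom on recovered reads, and 0 were called by the authors' deposited test. The unadjusted p of Tuba1a in that deposited test was 0.0361, the lowest of the 11, with a deposited adjusted p of 0.112. With read totals 6 of the 11 were called lower (Tuba1b, Tubb2a, Tubb3, Tubb4a, Tubb4b and Tubb5), beside 42.4% of all tested genes. With the trimmed mean of M-values 2 were (Tuba1b and Tubb3), beside 4050 of the 15745 tested genes. With a trend on length and level removed, 4 were called lower (Tuba1b, Tubb3, Tubb4b and Tubb5) and 0 higher, with a median of -0.31. Among all tested genes 25.2% were lower and 23.4% higher in that fit. Without Cpeb4 replicate 2, Tuba1a, Tuba1c, Tuba4a, Tubb4a and Tubb6 were called higher, at log2 fold changes of 0.36, 0.25, 0.36, 0.28 and 0.32. The other tested tubulins were not called, with Tuba1b at -0.17. That fit holds 1 Cpeb4 library, and the share of all tested genes called in it is not given here.

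A few members were too low to test. Tuba3a and Tuba3b, which are known from testis, Tuba8, Tubb1, the platelet isotype, and Map7d3 were all at or under 0.472 FPKM in every library. Map7d3 was the highest of them, with 19 and 18 recovered reads in Cpeb4 and 37 and 37 in IgG. Tubb1 and Tuba3b were listed at 0 FPKM in Cpeb4 replicate 2.

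**Figure D2:**
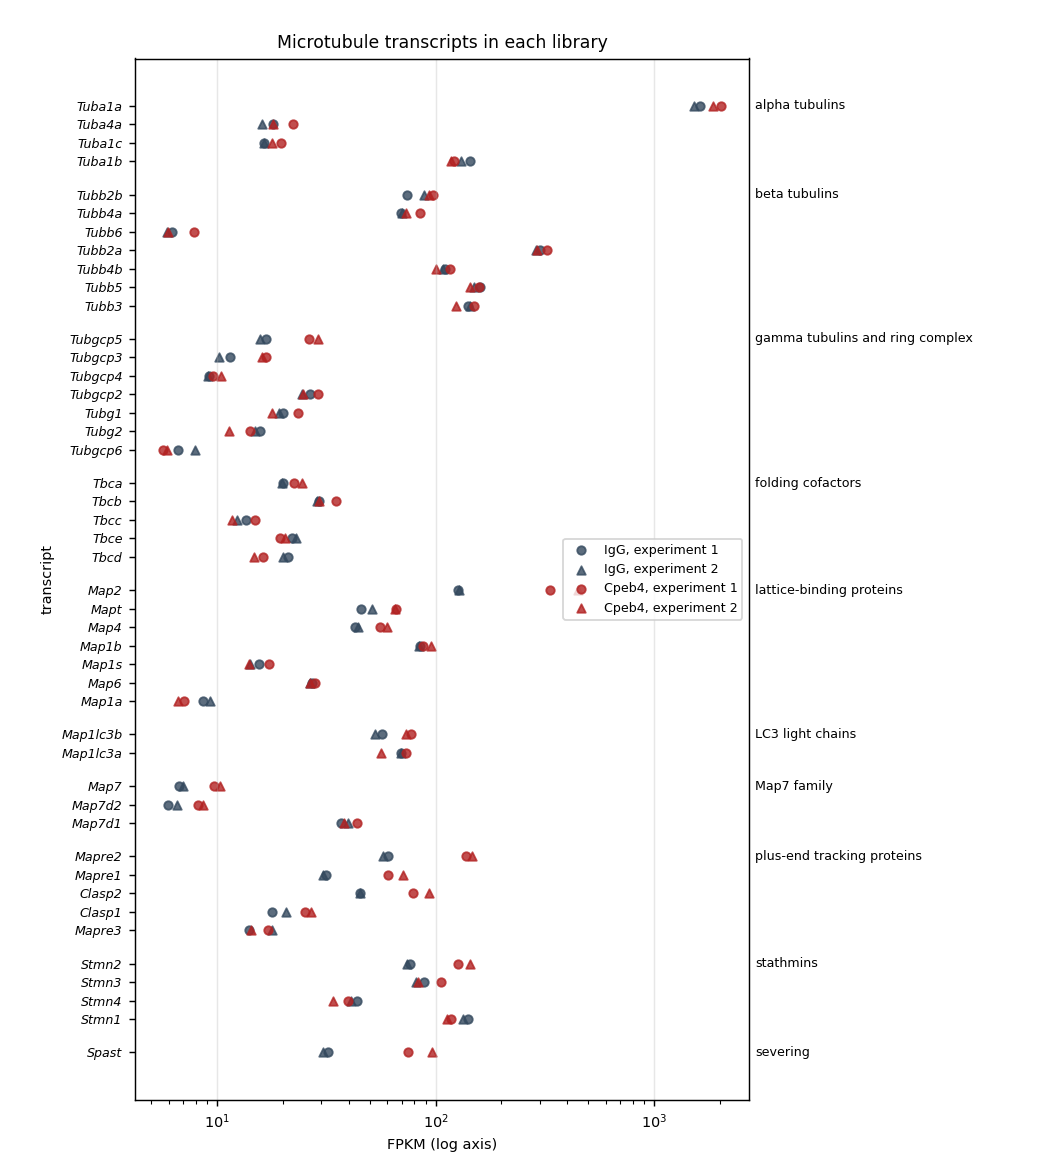
FPKM (log axis) of the 45 tested members in each of the 4 libraries, grouped by role. Red is Cpeb4 and dark blue is IgG, with circles for experiment 1 and triangles for experiment 2. Tuba1a stands highest at 1526 to 2020 FPKM, and the red and blue points of Map2, Spast, Mapre1, Mapre2 and Clasp2 are well apart.

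In the nucleation machinery, a pair of ring complex subunits stood apart from the rest. Tubgcp5 (chromosome 7: 55794125 to 55831459, GRCm38), a subunit that caps the ring in few copies, was at 26.4 and 29.1 FPKM in Cpeb4 and 16.8 and 15.8 FPKM in IgG. Both Cpeb4 libraries were higher, with a log2 fold change of 0.73 (limma SE 0.12, adjusted p = 0.000129). Tubgcp3, one of the core subunits that pair with gamma-tubulin, was higher at 0.56 (limma SE 0.12, adjusted p = 0.00113). Both calls were lost with read totals, at log2 fold changes of 0.24 for Tubgcp5 (limma adjusted p = 0.134) and 0.08 for Tubgcp3 (0.624), and Tubgcp3 also without IgG replicate 2 (0.49, limma adjusted p = 0.0709).

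The other ring complex genes were not called. Tubgcp2, the partner of Tubgcp3 in the core unit and the most abundant gene of the group, was at 28.9 and 24.8 FPKM in Cpeb4 and 26.7 and 24.5 FPKM in IgG. The groups overlapped, with a log2 fold change of 0.06 (limma SE 0.12, adjusted p = 0.698). Tubgcp4 was at 0.12 and the large subunit Tubgcp6 at -0.28 (limma adjusted p = 0.0842). The gamma tubulin genes Tubg1 and Tubg2 were at 0.06 and -0.26. Tubgcp5 exceeded Tubgcp6 by 0.81 in experiment 1 and 1.21 in experiment 2 on the log2 scale, and Tubgcp3 exceeded Tubgcp2 by 0.40 and 0.60. In all, 2 of 7 were higher and 0 lower, beside 38.8% and 11.6% of all tested genes, with a median of 0.06. By limma-voom Tubgcp6 was called lower.

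The folding cofactors assemble the tubulin dimer after the cytosolic chaperonin has released it. Of these genes 0 of 5 were higher and 1 was lower, beside 38.8% and 11.6% of all tested genes. Tbcd, the cofactor that holds beta tubulin (chromosome 11: 121451991 to 121617170, GRCm38), was at 16.2 and 14.7 FPKM in Cpeb4 and 21.2 and 20.0 FPKM in IgG. Both Cpeb4 values were below both IgG values, with a log2 fold change of -0.39 (limma SE 0.12, adjusted p = 0.0134). The call was lost, at a similar size, without IgG replicate 1 (-0.35, limma adjusted p = 0.185), without IgG replicate 2 (-0.43, 0.114) and with no filter on low values (-0.39, 0.0777). Its annotated span overlaps those of Zfp750 and B3gntl1, and reads there are uncertain without strand. Tbcb, which binds alpha tubulin and was the most abundant cofactor, was at 34.9 and 29.3 FPKM in Cpeb4 and 29.3 and 28.6 FPKM in IgG, with a log2 fold change of 0.14 (limma SE 0.12, adjusted p = 0.372). Tbca and Tbcc were at 0.22 and 0.03, and Tbce at -0.17.

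Map2 had the largest change of all members. It encodes the microtubule-associated protein of dendrites, and its mRNA is itself known to be carried into dendrites. Map2 (chromosome 1: 66175202 to 66442583, GRCm38) was at 335 and 449 FPKM in Cpeb4 and 126 and 127 FPKM in IgG. Both Cpeb4 values were far above both IgG values. The mean was 392 ± 80.2 FPKM (SD, n = 2) against 127 ± 0.555, a 3.04-fold difference on the FPKM + 1 scale (limma log2 difference 1.60, SE 0.15, adjusted p = 4.09e-07). It was 1.40 in experiment 1 and 1.81 in experiment 2, higher than 98.1% of all tested genes. It was 1.33 with the trimmed mean of M-values and 1.09 with read totals, and was called under each.

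The close relatives of Map2 changed less. Mapt, which encodes the axonal protein tau, was at 65.7 and 65.3 FPKM in Cpeb4 and 45.4 and 51.1 FPKM in IgG, higher by a log2 fold change of 0.43 (limma SE 0.13, adjusted p = 0.00909). Map4, the widely expressed member of this family, was at 55.5 and 59.7 against 43.0 and 44.2 FPKM, a log2 fold change of 0.39 (limma SE 0.12, adjusted p = 0.0144). For both genes the Cpeb4 libraries lay above the IgG libraries. Map2 exceeded Mapt by 0.88 in experiment 1 and 1.46 in experiment 2, and exceeded Map4 by 1.04 and 1.38. With read totals Mapt and Map4 lay at -0.07 and -0.11, and with the trimmed mean of M-values at 0.16 and 0.12. Neither was called in these fits. With no filter on low values Mapt and Map4 kept the same log2 fold changes but were not called (limma adjusted p = 0.0819 and 0.0867). Their calls were also lost without IgG replicate 1 (limma log2 fold change 0.35, adjusted p = 0.206 for Mapt, and 0.37, 0.179 for Map4) and without IgG replicate 2 (0.52, 0.0718 and 0.41, 0.144), with the size of the change close to that of the full fit.

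Of the Map1 family genes, 0 of 3 were higher and 1 was lower, beside 38.8% and 11.6% of all tested genes. Map1b, the form of growing axons, had a level of 84.9 and 83.9 FPKM in IgG and 87.6 and 95.3 FPKM in Cpeb4, and its log2 fold change of 0.11 was not called (limma SE 0.13, adjusted p = 0.495). Map1a, the form of mature neurons (chromosome 2: 121289590 to 121310832, GRCm38), was at 7.07 and 6.65 FPKM in Cpeb4 and 8.64 and 9.26 FPKM in IgG. It was lower by a log2 fold change of -0.34 (limma SE 0.13, adjusted p = 0.0354), a call lost, at a similar size, without IgG replicate 1 (-0.38, limma adjusted p = 0.14), without IgG replicate 2 (-0.29, 0.257) and with no filter on low values (-0.34, 0.136). Its annotated span overlaps those of Trp53bp1 and Ppip5k1, so reads there are uncertain in an assay without strand. The same limit holds for members called higher, such as Mapre1 (overlapping Efcab8) and Map1lc3b (Zcchc14). The spans of Map2, Mapre2, Clasp1, Clasp2, Map4, Map7, Mapt and Tubgcp3 also overlap other annotated genes. Those of Spast, Stmn2, Tubgcp5 and Map7d2 do not. Map1s and the cold-stable microtubule protein Map6 were at 0.07 and 0.02. In the lattice-binding group 3 of 7 were higher and 1 lower, beside the same shares of all tested genes, with a median of 0.11.

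The LC3 light chains associate with Map1 proteins and are better known as the lipidated proteins of autophagosomes. Of these genes 1 of 2 was called higher, beside 38.8% of all tested genes. Map1lc3b (chromosome 8: 121590438 to 121598760, GRCm38) was at 77.0 and 72.8 FPKM in Cpeb4 and 56.7 and 52.9 FPKM in IgG, higher by a log2 fold change of 0.44 (limma SE 0.13, adjusted p = 0.00747). Map1lc3a, the more abundant of the pair in both IgG libraries, was at 73.2 and 56.1 FPKM in Cpeb4 and 69.8 and 69.4 FPKM in IgG. Its groups overlapped and it was not called (limma log2 difference -0.12, SE 0.13, adjusted p = 0.499). Map1lc3b exceeded Map1lc3a by 0.37 in experiment 1 and 0.76 in experiment 2, and differences between related members, here and elsewhere, were not tested.

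In the Map7 family, which recruits kinesin-1 to the lattice, 2 of 3 tested genes were higher, beside 38.8% of all tested genes. Map7 (chromosome 10: 20148920 to 20281590, GRCm38) was at 9.68 and 10.3 FPKM in Cpeb4 and 6.71 and 6.97 FPKM in IgG, a log2 fold change of 0.49 (limma SE 0.12, adjusted p = 0.00399). Map7d2 was at 0.38 (limma SE 0.13, adjusted p = 0.0193). Map7d1, the most abundant, was at 43.5 and 38.1 FPKM in Cpeb4 and 37.1 and 39.6 FPKM in IgG, with overlapping groups and a log2 fold change of 0.09 (limma SE 0.13, adjusted p = 0.606). With read totals Map7, Map7d2 and Map1lc3b were at 0.03, -0.07 and -0.06, and with the trimmed mean of M-values at 0.24, 0.14 and 0.17. None of them was called there. With no filter on low values they were not called either (limma adjusted p = 0.0513, 0.0964 and 0.0683). The 3 calls were also lost without IgG replicate 1, with log2 values of 0.46, 0.32 and 0.49 (adjusted p = 0.0813, 0.214 and 0.0847 by limma), and without IgG replicate 2, at 0.51, 0.44 and 0.40 (limma adjusted p = 0.0593, 0.0947 and 0.165).

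Of the plus-end tracking genes 4 of 5 were higher, beside 38.8% of all tested genes, with a median log2 fold change of 0.91. The count was 3 of 5 with the trimmed mean of M-values, beside 4081 of the 15745 tested genes, and 3 of 5 with read totals, beside 17.5%. With the length and level trend removed it was 2 of 5, beside 23.4% of all tested genes. Mapre2, which encodes the end-binding protein EB2 (chromosome 18: 23752333 to 23893861, GRCm38), was at 138 and 147 FPKM in Cpeb4 and 60.4 and 57.6 FPKM in IgG. The groups were far apart. The mean was 143 ± 6.11 FPKM (SD, n = 2) against 59.0 ± 1.94, 2.39-fold higher on that scale (limma log2 difference 1.26, SE 0.13, adjusted p = 9.7e-07). Its log2 difference was 1.18 in experiment 1 and 1.34 in experiment 2.

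Mapre1, which encodes EB1, the end-binding protein that recruits most other plus-end factors (chromosome 2: 153741287 to 153773317, GRCm38), was at 60.5 and 70.6 FPKM in Cpeb4 and 31.4 and 30.6 FPKM in IgG. It was 2.07-fold higher (limma log2 difference 1.05, SE 0.13, adjusted p = 4.51e-06), and its groups were well separated. Mapre3, which encodes the neuronal EB3, was at 17.1 and 14.3 FPKM in Cpeb4 and 14.0 and 17.8 FPKM in IgG. The groups of Mapre3 overlapped fully, with a log2 difference of 0.27 in experiment 1 and -0.29 in experiment 2 and a log2 fold change of -0.01 (limma SE 0.14, adjusted p = 0.957). Mapre2 exceeded Mapre3 by 0.91 and 1.63 in the 2 experiments, and Mapre1 exceeded it by 0.66 and 1.47.

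The rescue factors Clasp1 and Clasp2, which hold and restart plus ends, were both higher with the deposited scaling. Clasp2 (chromosome 9: 113740077 to 113919697, GRCm38) was at 78.8 and 93.0 FPKM in Cpeb4 and 45.1 and 45.3 FPKM in IgG, 1.88-fold higher (limma log2 difference 0.91, SE 0.13, adjusted p = 2.23e-05). Clasp1 had a log2 fold change of 0.42 (limma SE 0.12, adjusted p = 0.00834). Clasp2 exceeded Clasp1 by 0.31 in experiment 1 and 0.66 in experiment 2. Clasp2 remained called under the trimmed mean of M-values (0.63) and read totals (0.40), whereas Clasp1 was at 0.16 and -0.07 and was not called. Without IgG replicate 1 and without IgG replicate 2, Clasp1 was also not called, with log2 values of 0.32 and 0.53 (adjusted p = 0.229 and 0.0581 by limma).

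**Figure D3:**
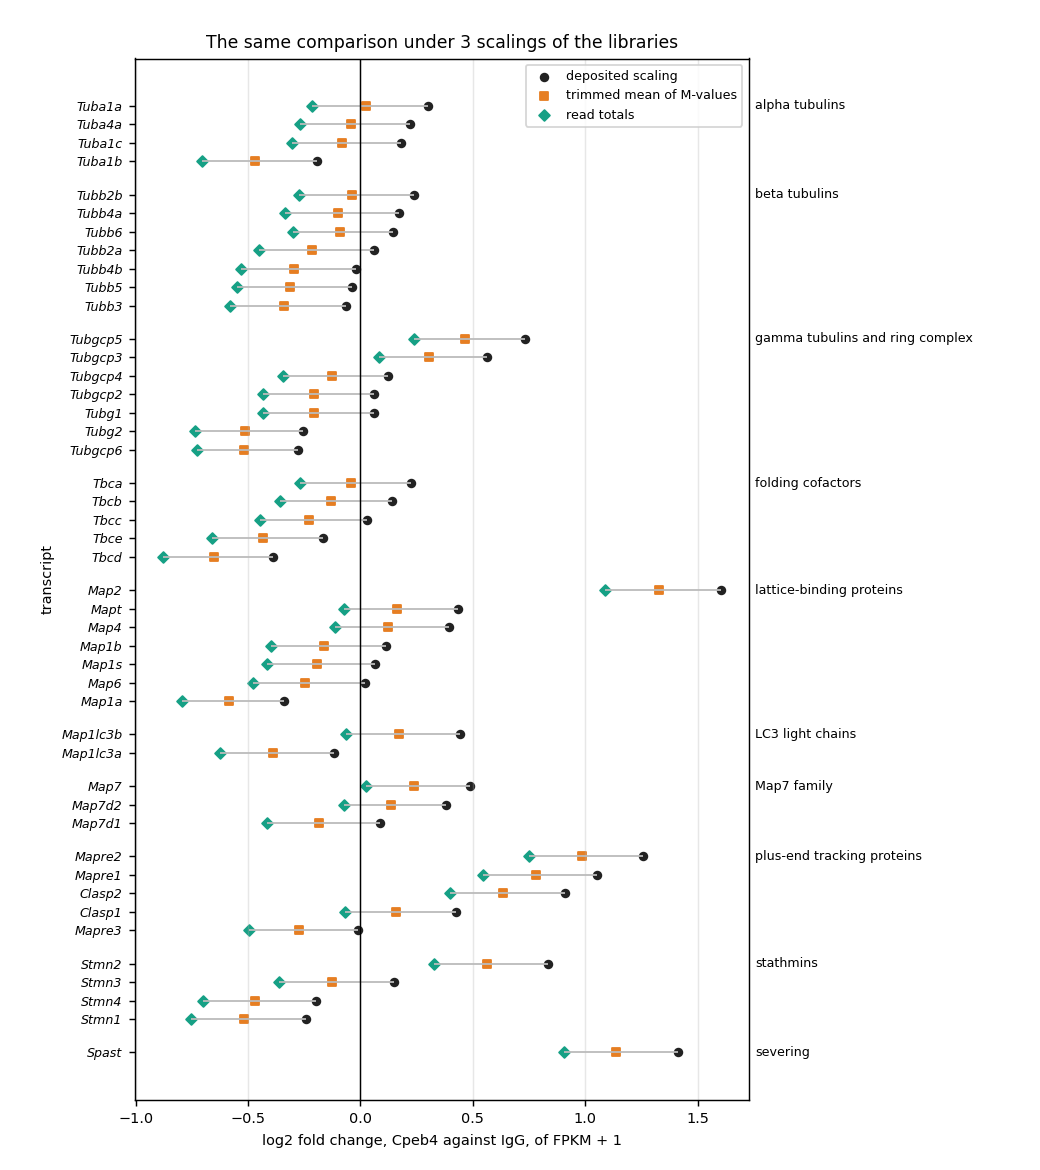
Log2 fold change of FPKM + 1, Cpeb4 against IgG, for the 45 tested members under the deposited scaling (circles), the trimmed mean of M-values (squares) and read totals (diamonds). Every member shifts left by a similar amount, and Map2 (1.09), Spast (0.91) and Mapre2 (0.75) stay farthest to the right under read totals, while 7 of the 11 tested alpha and beta tubulins cross 0.

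Among the stathmins, phosphoproteins that bind free tubulin dimers, 1 of 4 was higher, beside 38.8% of all tested genes. Stmn2, the membrane-anchored stathmin of growth cones (chromosome 3: 8509527 to 8561604, GRCm38), was at 126 and 143 FPKM in Cpeb4 and 76.2 and 73.7 FPKM in IgG. The groups were well apart, 1.79-fold on the FPKM + 1 scale (limma log2 difference 0.84, SE 0.13, adjusted p = 7.12e-05). With read totals it was at 0.33 and just inside the threshold (limma adjusted p = 0.0495). Stmn1, the cytosolic stathmin of progenitors and young neurons and the most abundant in the IgG libraries, was at 118 and 113 FPKM in Cpeb4 and 140 and 133 FPKM in IgG. Its values lay on the opposite side, Cpeb4 below IgG, with a log2 fold change of -0.24 that was not called (limma SE 0.13, adjusted p = 0.14). Stmn3 and Stmn4 were at 0.15 and -0.20. Stmn2 exceeded Stmn1 by 0.97 in experiment 1 and 1.19 in experiment 2.

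Spast encodes spastin, the ATPase that severs microtubules and is named for hereditary spastic paraplegia. Spast (chromosome 17: 74337923 to 74391115, GRCm38) was at 75.0 and 96.2 FPKM in Cpeb4 and 32.0 and 30.6 FPKM in IgG. Both Cpeb4 libraries were far above both IgG libraries. The mean was 85.6 ± 15.0 FPKM (SD, n = 2) against 31.3 ± 1.0, 2.66-fold higher on that scale (limma log2 difference 1.41, SE 0.13, adjusted p = 4.56e-07). It was 1.20 in experiment 1 and 1.62 in experiment 2, above 96.4% of all tested genes, and 1.14 and 0.91 under the trimmed mean of M-values and read totals.

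The size of the change moved with gene length across all genes as well as within the set. Gene length is that implied by the recovered reads and FPKM. Among all tested genes the median log2 fold change was 0.07 for genes of 1 to 2 kb and 0.36 for those of 4 to 6 kb, and the share called higher was 27.0% and 52.1%. Of the 16 members of 1 to 2 kb, which include most tubulins, 0 were higher, and of the 12 members of 4 to 6 kb, 8 were higher. Across genes, log2 length and log2 fold change had a Pearson r of 0.36 and a Spearman rho of 0.37 over 45 members and 0.33 and 0.30 over 15633 tested genes with a length. Genes are not independent replicates, and all points come from the same 4 libraries. The tested alpha and beta tubulins had implied lengths of 1.61 to 2.86 kb, and 4 of the 11 were called lower with a trend on length and level removed.

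Pairs of members near each other in length were set side by side, picked without a rule fixed beforehand and not tested. Map1a and Map1b, both of 11.9 kb, had log2 fold changes of -0.34 and 0.11. Tubgcp6 at 7.7 kb was at -0.28 and Mapre1 at 7.39 kb at 1.05. Other pairs lay close together, such as Map1s at 4.67 kb and Map6 at 4.96 kb, at 0.07 and 0.02. With a trend on implied length and mean level removed over all tested genes, an alternative chosen after seeing the data, 4 members were higher, beside 23.4% of all tested genes. They were Map2 at 0.83 (limma adjusted p = 0.00041), Spast at 0.73 (0.000504), Mapre2 at 0.55 (0.00253) and Mapre1 at 0.35 (0.0293). These 4 were the members called higher under every one of the 11 alternatives tried. In the same fit 18 members were lower, beside 25.2% of all tested genes, and Map4 turned from 0.39 to a call of lower at -0.32 (limma adjusted p = 0.0428). The calls of Clasp2 (0.18, limma adjusted p = 0.247), Stmn2 (0.17, 0.284), Tubgcp5 (0.21, 0.18) and Tubgcp3 (0.03, 0.855) were lost there.

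**Figure D4:**
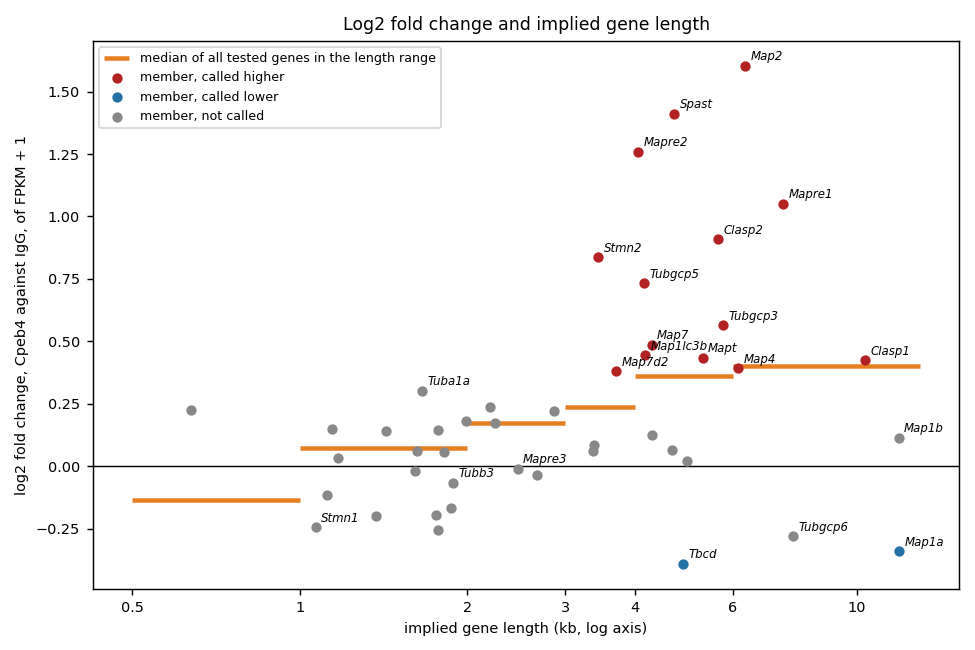
Log2 fold change of FPKM + 1, Cpeb4 against IgG with the deposited scaling, against implied gene length (kb, log axis) for the 45 tested members, coloured by call. Orange lines are the median of all tested genes in 6 length ranges, 0.07 at 1 to 2 kb and 0.36 at 4 to 6 kb. Map2, Spast, Mapre2 and Mapre1 lie far above the line of their length, and Tbcd, Tubgcp6 and Map1a below it.

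Other genes of the microtubule system were read from 5 lists with 83 genes, of which 81 were tested. With the deposited scaling 37 were higher and 8 lower, which is 45.7% and 9.88%, beside 38.8% and 11.6% of all tested genes, and 18 were higher under all 3 scalings, beside 17.5% of all tested genes. With the trimmed mean of M-values 27 were higher and 21 lower, beside 4081 and 4050 of the 15745 tested genes. With read totals 18 were higher and 34 lower, beside 17.5% and 42.4% of all tested genes. Without IgG replicate 1 there were 27 higher and 0 lower, and without IgG replicate 2, 26 and 1. Among 14 tubulin folding chaperones 7 were higher and 1 lower, led by the prefoldin subunit Vbp1 at 142 and 199 FPKM in Cpeb4 and 42.3 and 37.0 FPKM in IgG (limma log2 difference 2.06, SE 0.15, adjusted p = 6.91e-08). The prefoldin subunit Pfdn6 was lower at -0.34 (limma adjusted p = 0.0284).

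Among 17 genes of nucleation, augmin and minus ends 9 were higher and 2 lower, beside 38.8% and 11.6% of all tested genes. Their median was 0.58. Mzt1, a small protein bound to the ring complex subunits, was at 124 and 173 FPKM in Cpeb4 and 36.1 and 30.7 FPKM in IgG (limma log2 difference 2.11, SE 0.15, adjusted p = 6.15e-08). The augmin subunit Haus5 was lower at -0.58 (limma adjusted p = 0.00272). The nucleation counts were 9 and 5 with the trimmed mean of M-values, beside 4081 and 4050 of the 15745 tested genes. With read totals they were 6 and 7, beside 17.5% and 42.4% of all tested genes. Those of the folding chaperones were 5 and 4, and 4 and 7, in the same order. Of 21 other plus-end and lattice proteins 12 were higher and 1 lower, beside 38.8% and 11.6% of all tested genes. These proteins were 9 higher and 5 lower with the trimmed mean of M-values, beside 4081 and 4050 of the 15745 tested genes. With read totals they were 5 and 8, beside 17.5% and 42.4%. Slain2, which works with EB1 at plus ends, was at 1.61 (limma SE 0.13, adjusted p = 1.08e-07) and Mtcl1, a microtubule crosslinker, at -0.36 (limma adjusted p = 0.0261).

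Enzymes that modify tubulin went both ways, with 7 of 23 higher and 4 lower and a median of 0.03, beside 38.8% and 11.6% of all tested genes. They were 2 higher and 7 lower with the trimmed mean of M-values, beside 4081 and 4050 of the 15745 tested genes. With read totals 1 was higher and 12 were lower, beside 17.5% and 42.4% of all tested genes. The glutamylase Ttll7 was higher at 0.93 (limma SE 0.14, adjusted p = 3.3e-05) and the acetyltransferase Atat1 lower at -0.47 (limma adjusted p = 0.00514). Of 6 other severing genes tested 2 were higher and 0 lower, 0 of them lower at an unadjusted p under 0.05 in limma. Katnal1, a katanin-like ATPase, was highest at 0.98 (limma SE 0.12, adjusted p = 6.58e-06). Vbp1, Mzt1, Slain2, Ttll7 and Katnal1 were higher under all 3 scalings. The calls of Pfdn6, Mtcl1 and Atat1 were lost without IgG replicate 1, with log2 values of -0.27, -0.42 and -0.48 (adjusted p = 0.308, 0.111 and 0.0926 by limma). They were also lost without IgG replicate 2, at -0.42, -0.30 and -0.46 (limma adjusted p = 0.12, 0.255 and 0.108), and that of Haus5 without IgG replicate 1, at -0.54 (limma adjusted p = 0.0541).

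The authors' deposited table, which tests counts rather than FPKM, held the same calls for most members. It called 13 of the 45 tested members higher and 1 lower, beside 4879 higher and 803 lower of the 15745 genes tested here. The shares were 21.7% and 4.93% of the 22709 genes to which it gives an adjusted p. That wider set includes genes under the filter used here, so its shares are not a like comparison. In the authors' deposited table Map2 had a log2 fold change of 1.60 (SE 0.16), Spast 1.43 (SE 0.16), Mapre2 1.27 (SE 0.15) and Mapre1 1.07 (SE 0.15). The 2 calls made by limma and not in the authors' deposited table were Map7d2 (deposited adjusted p = 0.0901) and Map1a (0.0532). The authors' deposited table called 0 of the alpha and beta tubulins to which it gives an adjusted p, the smallest adjusted p being 0.112 for Tuba1a.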

How the data were processed

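The 4 libraries were measured by RNA sequencing after immunoprecipitation. Per the labels' protocols, the MAGNA RIP kit was used for precipitation, SMART-Seq v4, which does not mark strand, for cDNA and Nextera XT for libraries. Tools named in the submitters' processing notes were STAR 2.6.0c, HTSeq 0.6.1p2, DESeq2 1.26.0 and Trim Galore 0.5.0, with mm10 as the build and no settings. Per the file headers, the deposited table holds FPKM for each library. The authors also deposited a mean signal (reads divided by size factors), its log2 ratio between antibodies and the SE, a test score, and p-values. Reads were recovered here from the steps of the FPKM joined to the mean signal, and 100% of values were whole within 0.01 read. Without molecular identifiers, reads are not independent molecules. Recovered reads gave depth, implied gene length, scalings and 1 alternative test.

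Genes at 1 FPKM or more in at least 2 libraries (15745) entered limma 3.58.1 (R 4.3.3) as log2(FPKM + 1), with a trended prior, experiment as a block, two-sided tests and Benjamini-Hochberg adjustment. Fold changes on this scale are understated for low genes. The block came from the experiment numbers in the labels. Deviations of same-numbered libraries correlated at 0.0024, and 42 genes differed between experiments. It left 1 residual degree of freedom, to which the prior added 14.6. A simulation of this comparison over 15745 genes, 200 of them altered by a log2 value of 1 or 2, gave 100% recovery at both sizes with 8.26% false calls. It drew independent normal noise at limma's own spread, with no shift of scaling and no trend on length. Changes under 1, such as those of Mapt, Map4, Tbcd and Map1a, were not simulated, so it says nothing about them. The members, roles and lists were chosen with earlier results of these data known. Every member is named. Per-library values went to the most abundant member of each role, its called members with the largest positive and negative changes and the 5 largest changes of any role, and to Tuba1b, Tubb3, Mapt, Map4, Map1b and Mapre3, chosen after their values were seen. Pathway genes were the largest called change in each direction per list. Coordinates are from RefSeq (GRCm38.p6). Alternatives were 2 other scalings, a pseudocount of 0.1, no filter, no block, limma-voom, leaving out each library (without the block) and, added after seeing the data, removal of a loess trend (span 0.5) on length and level.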

Additional observations from a re-analysis of the deposited data

How the results depend on the processing

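The members' counts of 14 higher and 2 lower depended on scaling, filter and single libraries. They were 6 and 25 with read totals, 8 and 10 with the trimmed mean of M-values, 8 and 0 with no filter, 14 and 2 with no replicate block, 14 and 2 with a pseudocount of 0.1, and 14 and 3 with limma-voom. Leaving out a library gave 7 to 22 higher and 0 to 6 lower. With the length and level trend removed, chosen after seeing the data, they were 4 and 18. The pathway counts of 37 and 8 became 18 and 34, 27 and 21, 25 and 0, 37 and 7, 37 and 7, and 38 and 10 in the same order, 26 to 39 and 0 to 12 without a library, and 23 and 23 with the trend removed. Among all tested genes the deposited scaling gave 38.8% higher and 11.6% lower, and read totals 17.5% and 42.4%. The trimmed mean of M-values gave 4081 and 4050 of 15745 genes, and the trend removal 23.4% and 25.2%. The fit without the block changed no call of a member.

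Log2 fold changes turned negative with read totals for Map1lc3b -0.064, Map7d1 -0.42, Map7d2 -0.073, Tuba1a -0.21, Tuba1c -0.31, Tuba4a -0.27, Tubb2a -0.45, Tubb2b -0.27, Tubb4a -0.34, Tubb6 -0.30, Tbca -0.27, Tbcb -0.36, Tbcc -0.45, Tubg1 -0.43, Tubgcp2 -0.43, Tubgcp4 -0.34, Map1b -0.40, Map1s -0.42, Map4 -0.11, Map6 -0.48, Mapt -0.073, Clasp1 -0.069 and Stmn3 -0.36. With the trimmed mean of M-values they did so for Map7d1 -0.19, Tuba1c -0.081, Tuba4a -0.044, Tubb2a -0.22, Tubb2b -0.039, Tubb4a -0.10, Tubb6 -0.093, Tbca -0.041, Tbcb -0.13, Tbcc -0.23, Tubg1 -0.21, Tubgcp2 -0.21, Tubgcp4 -0.13, Map1b -0.16, Map1s -0.19, Map6 -0.25 and Stmn3 -0.13. With the trend removed they did so for Map1lc3b -0.24, Map7d1 -0.47, Tuba1c -0.060, Tuba4a -0.14, Tubb2a -0.33, Tubb2b -0.25, Tubb4a -0.31, Tubb6 -0.0039, Tbcb -0.11, Tbcc -0.078, Tubg1 -0.17, Tubgcp2 -0.42, Tubgcp4 -0.28, Map1b -0.55, Map1s -0.44, Map4 -0.32, Map6 -0.58, Mapt -0.28, Clasp1 -0.19 and Stmn3 -0.17. The scalings shift all genes by construction; the causes of the other changes were not tested. Leaving out a library changed signs over these ranges: Map1lc3a -0.31 to 0.072, Map1s -0.078 to 0.21, Map6 -0.019 to 0.061, Map7d1 -0.0074 to 0.18, Mapre3 -0.17 to 0.15, Stmn3 -0.023 to 0.32, Tbcc -0.14 to 0.20, Tubb2a -0.010 to 0.13, Tubb3 -0.20 to 0.069, Tubb4b -0.12 to 0.085, Tubb5 -0.10 to 0.031, Tubb6 -0.029 to 0.32, Tubg1 -0.13 to 0.24 and Tubgcp2 -0.046 to 0.17. With 2 libraries per antibody, the precision rests largely on the prior shared across genes.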
